A study of Mus musculus with 6 samples.

Results

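Among the RNA of sorted cells from the embryonic mouse dorsal pancreatic bud were transcripts of granule proteins of blood cells. The 10 genes described here were 4 mast cell protease genes (Cma1, Tpsb2, Mcpt4 and Cpa3) and 6 neutrophil granule genes (Ltf, Ngp, S100a8, S100a9, Camp and Lcn2), out of 24062 genes in the tables. They were chosen from measured values: the mast cell genes because they appeared at E14.5 (E for embryonic day), and the neutrophil genes because they differed between the E14.5 pools. Those differences are therefore given as descriptions.

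RNA was sequenced in 6 libraries, 1 for each group. Buds of mTmG reporter mice were dissected at E12.5 and E14.5, and cells were sorted by red Tomato and green GFP fluorescence, fractions being pooled before RNA was purified. Both genotypes, control and mutant, gave 3 pools each, which were E12.5 mesenchyme, E12.5 epithelium and E14.5 epithelium. The control genotype is given as mTmG alone, and the labels do not say how green cells were obtained from it. The mutant genotype includes the mTmG reporter, Cre from the Nkx2-5 locus, which acts in the mesenchyme of this region, and 1 mutant copy of Pbx2, a homeodomain partner of Hox factors. The gates named were the reporter colours, and no blood cell marker is named in the sort. How many embryos made up a pool was not given.

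Mast cells and neutrophils are blood cells that store their effector proteins in granules. Mast cell granules hold proteases bound to proteoglycan, among them chymases, tryptases and a carboxypeptidase, and mast cell progenitors settle in tissues, where they mature under the Kit receptor. Neutrophil granules are filled in sequence as the cell matures in blood-forming tissue. Primary (azurophil) granules with myeloperoxidase come first, secondary granules with lactoferrin and cathelicidin follow, and gelatinase granules come last. GATA factors act at mast cell genes, and C/EBP factors, C/EBP epsilon above all, drive the genes of secondary granules.

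The promoter letters of 5 of the genes are shown because the members of each group varied together across the libraries, and these windows hold matches to the GATA motif in genes of both groups and to the C/EBP motif in neutrophil genes. The genes were chosen by shared patterns, so that likeness was partly built in, and nothing about shared control is read from it. The promoter of Cma1, which holds neither motif, is shown for contrast. Capitals mark the GATA motif, searched as AGATAA and, in a second form, as TGATAA, and the C/EBP motif, searched as TTGCNNAA. Both strands were searched. Each window is 150 bases, 5′ to 3′ on the gene's own strand, from RefSeq on GRCm38.p6, and ends before whichever of the RefSeq and GENCODE starts comes first. That is the GENCODE start in Mcpt4, Ltf and Ngp, which lies 3, 21 and 61 bases before the RefSeq start. The positions are chr3:20242182-20242331 (minus strand) for Cpa3, chr14:56062314-56062463 (minus) for Mcpt4, chr14:55944676-55944825 (minus) for Cma1, chr9:111019121-111019270 (plus) for Ltf and chr9:110419597-110419746 (plus) for Ngp.
Cpa3: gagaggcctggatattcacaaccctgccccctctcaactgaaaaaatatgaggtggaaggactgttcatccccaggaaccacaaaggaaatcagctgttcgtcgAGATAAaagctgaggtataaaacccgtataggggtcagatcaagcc
Mcpt4: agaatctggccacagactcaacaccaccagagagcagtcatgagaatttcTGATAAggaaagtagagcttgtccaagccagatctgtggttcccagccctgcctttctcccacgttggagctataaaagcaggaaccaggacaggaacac
Cma1: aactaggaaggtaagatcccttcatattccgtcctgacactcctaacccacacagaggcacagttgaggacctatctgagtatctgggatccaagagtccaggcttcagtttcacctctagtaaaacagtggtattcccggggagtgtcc
Ltf: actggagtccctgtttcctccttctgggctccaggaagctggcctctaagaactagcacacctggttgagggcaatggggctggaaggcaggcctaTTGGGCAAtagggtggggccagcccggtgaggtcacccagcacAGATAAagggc
Ngp: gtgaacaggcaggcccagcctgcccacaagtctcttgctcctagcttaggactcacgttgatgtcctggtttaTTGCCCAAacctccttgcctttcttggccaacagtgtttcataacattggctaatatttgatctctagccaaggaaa

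Of the 10 members, 9 had a promoter entry, and Tpsb2 had none. In the 250 bases before the RefSeq start, a GATA motif of either form was found in 4 of the 9, at 46 bases before the start in Cpa3, 103 in Mcpt4, 32 in Ltf and 30 in S100a9. Among 32851 mouse promoters of the same length, 16.6% hold a GATA motif of either form. The C/EBP motif was found in 4 of the 9, all of them neutrophil genes, at 75 bases before the start in Ltf, 138 and 11 in Ngp (the nearer one lies outside the window shown), 236 in S100a9 and 216 in Lcn2, against 9.56% of all promoters. TATAAA, searched on the gene's strand, lay 31 bases before the start in Cpa3, 32 in Mcpt4 and 30 in S100a8, against 7.59% of all promoters. No C/EBP motif was found for the neutrophil genes S100a8 and Camp. Such matches are letters in a window and do not show binding.

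The members lie on 5 chromosomes, and some lie close together. On GRCm38 (GENCODE M21), Cma1 spans 14:55941451-55944675 and Mcpt4 14:56059629-56062313, 115 kb apart in the chymase locus with 4 protein-coding genes between them. S100a8 (3:90668978-90670035) and S100a9 (3:90692632-90695721) are neighbours on opposite strands, 22.6 kb apart with no protein-coding gene between. Camp, Ngp and Ltf lie along 1 stretch of chromosome 9 (Camp from 109847379 to 109849617, Ngp from 110419747 to 110423012, Ltf from 111019271 to 111042767), with 0.570 Mb from Camp to Ngp and 0.596 Mb from Ngp to Ltf. Cpa3 spans 3:20215620-20242181, Tpsb2 17:25366305-25369098 and Lcn2 2:32384633-32388252. Of the 50-base stretches of Mcpt4, 5.48% also occur in Cma2 or Mcpt9, and 5.38% of those of Cma1 occur in the gene model Gm48934, so the counts of these members are slightly uncertain. The other members shared no such stretch with another gene, and Cpa3 overlaps the microRNA gene Mir7007 on the same strand.

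Levels below are CPM, counts scaled to library size and adjusted between libraries by the trimmed mean of M values (TMM). Libraries held 14032569 to 20276045 reads on genes. With 1 library per group no test across samples was possible and no ratio has a replicate check. Ratios between libraries with reads are given with an exact 95% interval, which covers counting error between those libraries only. Where 1 library had no read, "at least" or "at most" marks the value at a floor of 3 reads. The exact 95% bound of such a fold is lower than the fold printed. A member is called higher or lower under 3 conditions: a level of 5 CPM or more in either library (measured), a ratio of 2-fold or more, and an interval leaving out 1. Pbx2 stood at 89.9 CPM in control and 56.0 CPM in mutant mesenchyme, but at 54.5 and 49.7 CPM in E12.5 epithelium and at 34.0 and 47.3 CPM in E14.5 epithelium. The epithelial levels do not show loss of 1 copy, so those libraries are called the libraries labelled mutant. The deposited table of E12.5 control epithelium is named in another form and with another date than the other 5, so in comparisons that use it a difference in run cannot be told apart from the group. Fraction labels were checked by markers: Epcam, an epithelial adhesion protein, stood at 462 to 938 CPM in the epithelial libraries and at 3.79 and 4.43 CPM in mesenchyme. The collagen gene Col1a1 was present in all 6 libraries, at 1142 to 2383 CPM in epithelium and 2290 and 2930 CPM in mesenchyme. The 2383 CPM was that of the E14.5 epithelium labelled mutant and lay above mutant mesenchyme. The 24 general mesenchymal genes summed to 11107 CPM in that library, against 10703.5 CPM in control and 9380 CPM in mutant mesenchyme. By these markers that library was not set apart from mesenchyme, although Epcam stood at 467 CPM in it.

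The mast cell proteases were nearly absent from mesenchyme, low in E12.5 epithelium and at their highest in the E14.5 epithelium labelled mutant. Cpa3 encodes mast cell carboxypeptidase A, which trims peptides from the carboxyl end. It stood at 15.3 CPM in E12.5 control epithelium, 9.86 CPM in E12.5 epithelium labelled mutant, 50.1 CPM in the E14.5 control and 97.5 CPM in the E14.5 library labelled mutant, with 1 read in each mesenchyme library. Cpa3 was thus present at both stages, and the E14.5 libraries were above both E12.5 libraries.

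Cma1 encodes the alpha-chymase of mouse mast cells. It stood at 3.72 CPM (79 reads) in E12.5 control epithelium, 24.4 CPM in the E14.5 control and 57.4 CPM in the E14.5 library labelled mutant. It had no read in the E12.5 epithelium labelled mutant, which allows up to 0.197 CPM by a floor of 3 reads, nor in either mesenchyme library. Appearance at E14.5, by which the mast cell genes were picked, therefore does not describe Cpa3 or Cma1 in control epithelium.

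Tpsb2 encodes a beta-tryptase, a trypsin-like protease that works as a tetramer held together by heparin. It had no read in any of the 4 E12.5 libraries (up to 0.141 CPM in control epithelium), and stood at 32.1 CPM in the E14.5 control and 48.5 CPM in the E14.5 library labelled mutant. Mcpt4, the chymase of connective tissue mast cells, had 7 reads (0.479 CPM) in the E14.5 control and 28 reads (2.01 CPM) in the library labelled mutant, and none at E12.5. Mcpt4 never reached 5 CPM and so was not measured in any comparison. Tpsb2 and Mcpt4 did match the choice by appearance at E14.5.

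Divided by exon length, the order of the mast cell genes was the same in both E14.5 libraries. In the control it was Cpa3 at 33.1, Cma1 at 22.4, Tpsb2 at 20.2 and Mcpt4 at 0.433 CPM per kb. In the library labelled mutant it was Cpa3 at 64.3, Cma1 at 52.6, Tpsb2 at 30.5 and Mcpt4 at 1.81 CPM per kb. Cma1 and Tpsb2 stood close together in the control and apart in the library labelled mutant.

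The 6 neutrophil genes were present in both E12.5 epithelial libraries and in the E14.5 control, and low or absent in the E14.5 library labelled mutant and in mesenchyme. Ltf encodes lactoferrin, the iron-binding protein of secondary granules. It stood at 71.5 CPM in E12.5 control epithelium, 25.9 CPM in E12.5 epithelium labelled mutant and 40.9 CPM in the E14.5 control. It had no read in the E14.5 library labelled mutant (up to 0.215 CPM) and none in mesenchyme.

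Ngp, the neutrophilic granule protein, belongs to the cystatin family. It stood at 71.3 CPM and 32.1 CPM in the E12.5 control and labelled-mutant epithelium, 64.8 CPM in the E14.5 control and 1.15 CPM (16 reads) in the E14.5 library labelled mutant. Camp encodes cathelicidin, the precursor of an antimicrobial peptide. It stood at 14.3 and 7.69 CPM in the E12.5 epithelial libraries, 14.4 CPM in the E14.5 control and 0.144 CPM (2 reads) in the E14.5 library labelled mutant. Lcn2 encodes lipocalin 2, which binds bacterial iron carriers and is also made by some epithelia. It followed the same order, at 20.3 and 8.61 CPM at E12.5, 13.3 CPM in the E14.5 control and 0.144 CPM (2 reads) in the E14.5 library labelled mutant. Ngp and Camp had no read in mesenchyme, and Lcn2 had 1 read in the mutant mesenchyme.

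S100a8 and S100a9 encode the subunits of calprotectin, a calcium- and zinc-binding protein that fills the neutrophil cytosol and is also made by some monocytes and epithelia. S100a8 stood at 24.1 and 15.4 CPM in the E12.5 epithelial libraries, 28.9 CPM in the E14.5 control and 3.02 CPM (42 reads) in the E14.5 library labelled mutant. S100a9 stood at 30.7 and 15.2 CPM, 36.4 CPM and 1.01 CPM (14 reads) in the same libraries. S100a8 had 2 reads in control and 6 in mutant mesenchyme, and S100a9 had none there. Both were lowest among the epithelial libraries in the E14.5 library labelled mutant, where S100a8 had the most reads of the group.

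**Figure D1:**
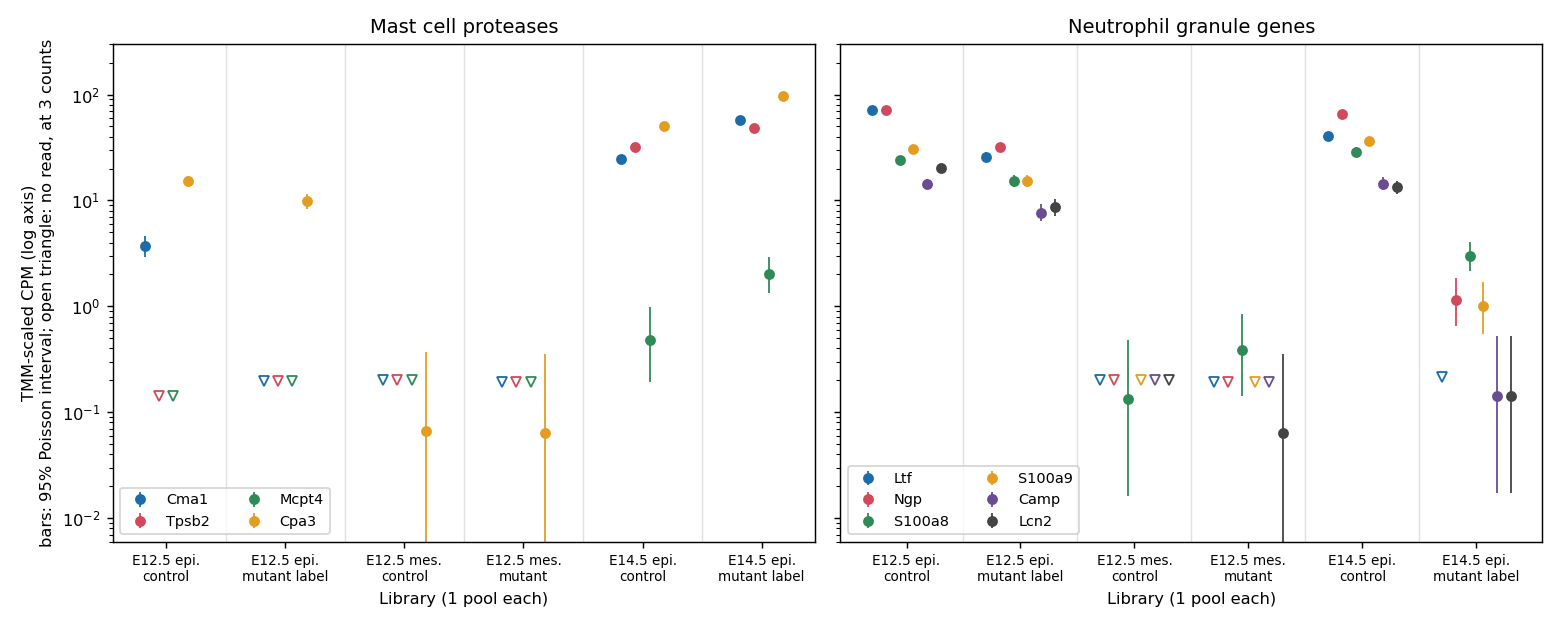
Level of each member in the 6 libraries, in TMM-scaled CPM on a log10 axis, with 1 point per library and bars for the exact 95% counting interval; members with no read are drawn at the floor of 3 reads. The mast cell genes stand highest in the E14.5 libraries, up to 97.5 CPM for Cpa3, while the 6 neutrophil genes stand between 7.69 and 71.5 CPM in 3 epithelial libraries and at or below 3.02 CPM in the E14.5 library labelled mutant.

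The make-up of each group can be read from the share of its reads that each member took. Among 4930 neutrophil gene reads in E12.5 control epithelium, Ltf took 30.8%, Ngp 30.7%, S100a9 13.2%, S100a8 10.4%, Lcn2 8.72% and Camp 6.15%. Ngp took a share of like size in the E12.5 library labelled mutant (30.6% of 1597 reads) and in the E14.5 control (32.6% of 2900 reads). The share of Ltf was smaller in both, at 24.7% (exact 95% interval 22.6 to 26.9) and 20.6% (19.1 to 22.1) against 29.5 to 32.1 in the E12.5 control. S100a9 took 18.3% and S100a8 14.6% in the E14.5 control, more than in the E12.5 control. The 76 reads of the E14.5 library labelled mutant held S100a8 at 55.3% (42 reads, 43.4 to 66.7), Ngp at 21.1%, S100a9 at 18.4%, Camp and Lcn2 at 2.63% each and Ltf at 0. No Ltf read among 76 allows a share of up to 4.74% by the exact 95% interval.

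The mast cell reads also changed in make-up, between stages. At E12.5 Cpa3 took 80.4% of 403 reads in the control and all 150 reads in the library labelled mutant. At E14.5 it took 46.8% of 1564 reads in the control and 47.5% of 2861 in the library labelled mutant. Tpsb2 went from no read at E12.5 to 30.0% and 23.6% of the reads at E14.5, and Cma1 from 19.6% and 0% to 22.8% and 27.9%.

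**Figure D2:**
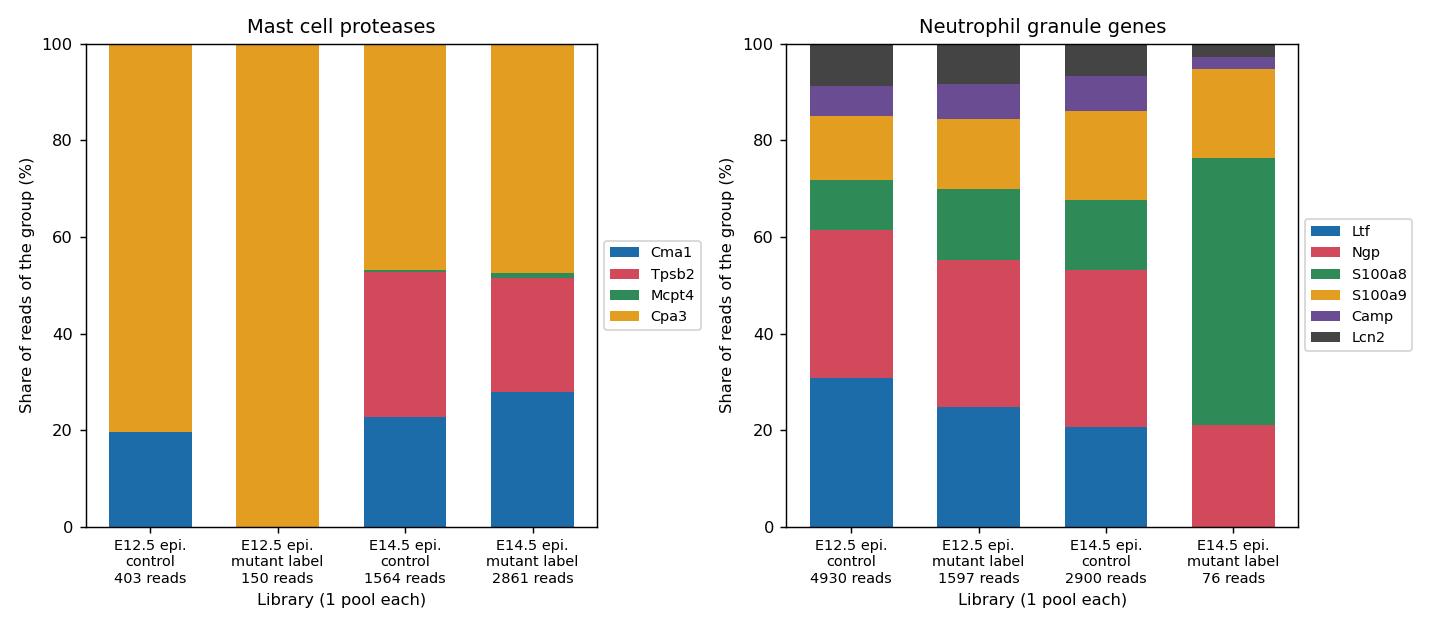
Share of the group's reads taken by each member, in percent, for the 4 mast cell genes and the 6 neutrophil genes in the 4 epithelial libraries; the number of reads in the group stands with each bar. Ltf goes from 30.8% in the E12.5 control to 20.6% in the E14.5 control, and in the E14.5 library labelled mutant S100a8 takes 55.3% of 76 reads.

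Per length, the calprotectin subunit S100a9 and the granule protein Ngp led the neutrophil group where it was high. In E12.5 control epithelium S100a9 stood at 58.8, Ngp at 58.4, S100a8 at 34.7, Ltf at 20.7, Camp at 18.8 and Lcn2 at 7.72 CPM per kb. In the E14.5 control the order of the first 3 was the same, with S100a9 at 69.7, Ngp at 53.0 and S100a8 at 41.7 CPM per kb. Camp (19.0) then stood above Ltf (11.9), and Lcn2 was again lowest at 5.07 CPM per kb. In the E14.5 library labelled mutant S100a8 was first at 4.35 CPM per kb, ahead of S100a9 at 1.93 and Ngp at 0.940.

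In the E14.5 epithelium labelled mutant, all 6 neutrophil genes were below the control, and 1 of 3 measured mast cell genes was higher. The 6 neutrophil genes summed to 199 CPM in control epithelium and to 5.46 CPM where the label said mutant, a 36.4-fold lower level (interval 29.0 to 46.3). Ltf, with no read, was at least 189.8-fold lower by the floor of 3 reads, and its exact 95% bound was 153.9-fold. Ngp was 56.4-fold lower (34.5 to 99.1) and S100a9 36.2-fold lower (21.4 to 66.6). On their 2 reads, Camp was 100.2-fold lower (27.4 to 832) and Lcn2 92.5-fold lower (25.3 to 769). S100a8 was the least lowered, 9.58-fold (6.97 to 13.5), and its interval does not reach that of any other neutrophil gene. All 6 were called lower, where 6.40% of 12145 measured genes were called lower. That contrast chose these genes, so nothing is read from the count.

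The 4 mast cell genes summed to 107 CPM in E14.5 control epithelium and to 205 CPM in that labelled mutant, a 1.92-fold higher level (1.80 to 2.04). Cma1 was 2.35-fold higher (2.07 to 2.67) and was the only 1 of the 3 measured mast cell genes called higher, where 9.64% of measured genes were called higher. Cpa3 was 1.95-fold higher (1.78 to 2.13) and Tpsb2 1.51-fold higher (1.34 to 1.70), both under the 2-fold threshold. Mcpt4, not measured, had a ratio of 4.19 (1.79 to 11.4) from 28 and 7 reads. Relative to the general leukocyte genes, Cma1 was 1.54-fold higher and was no longer called, Cpa3 was 1.27-fold higher, the sum was 1.25-fold higher (1.18 to 1.33), and Tpsb2 had a log2 ratio of -0.02 with an interval that included 1 (ratio 0.877 to 1.11).

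Markers of other blood cells and of the tissue moved in the same comparison, and their part in these ratios was not tested. Of 18 general leukocyte genes, 15 were measured, 3 of them higher and none lower in the library labelled mutant (sum 314 CPM in the control and 481 CPM there, median log2 ratio 0.57). Of 20 macrophage genes, 19 were measured, 4 higher and none lower (476 and 643 CPM, median 0.58). Of all measured genes, 9.64% were called higher and 6.40% lower. Ptprc, which encodes the leukocyte protein CD45, stood at 3.15 and 4.24 CPM, and Csf1r, the macrophage growth factor receptor, at 42.5 and 77.9 CPM. The 25 general epithelial genes summed to 7762 and 4182 CPM, and the 24 general mesenchymal genes to 5431 and 11107 CPM. The embryonic globin Hbb-y stood at 3.56 and 23.1 CPM. The median over all measured genes was -0.03 on the log2 scale. In bulk samples, fewer cells of a type and less RNA per cell cannot be told apart.

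In the E12.5 epithelium labelled mutant, 4 of 6 neutrophil genes were called below the control, and the 1 mast cell gene measured was not called. The neutrophil genes summed to 232 CPM in control epithelium and to 105 CPM in that labelled mutant, a 2.21-fold lower level (2.09 to 2.34). Ltf was 2.76-fold lower (2.47 to 3.10), Lcn2 2.35-fold (1.93 to 2.88), Ngp 2.22-fold (2.003 to 2.463) and S100a9 2.01-fold (1.73 to 2.35), and these 4 of 6 were called lower, where 3.21% of 11991 measured genes were. Camp was 1.86-fold lower (1.495 to 2.318) and S100a8 1.57-fold lower (1.34 to 1.84), both short of 2-fold. This contrast did not choose the genes, but it uses the control library with the differently named table.

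The mast cell genes summed to 19.0 CPM in E12.5 control epithelium and to 9.86 CPM in that labelled mutant, a 1.93-fold lower level (1.59 to 2.34). Cpa3, the 1 mast cell gene measured there, was 1.55-fold lower (1.27 to 1.89) and was not called. Cma1 had 79 reads in the control and none in the library labelled mutant, at least 18.9-fold lower, but stayed below 5 CPM. None of the 10 members was called higher, where 1.79% of measured genes were. The intervals of Cpa3, Camp and S100a8 left out 1 on the lower side, short of the 2-fold condition; relative to the general leukocyte genes that of Cpa3 included 1 (ratio 0.678 to 1.01).

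The leukocyte markers were lower in the same E12.5 library. Of 18 general leukocyte genes 15 were measured, with 2 lower and none higher (412 CPM in control epithelium, 321 CPM in that labelled mutant, median log2 ratio -0.62). Of 20 macrophage genes 15 were measured, with 3 lower and none higher (462 and 320 CPM, median -0.57). Of all measured genes, 3.21% were called lower and 1.79% higher. No gene of either list was without a read in both libraries. Relative to the general leukocyte genes, 1 of the 6 neutrophil genes was called lower in place of 4. The sum behind that centring includes Lsp1, which went the other way. It stood at 30.2 CPM in control epithelium and 47.6 CPM in that labelled mutant, and its part was not tested.

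**Figure D3:**
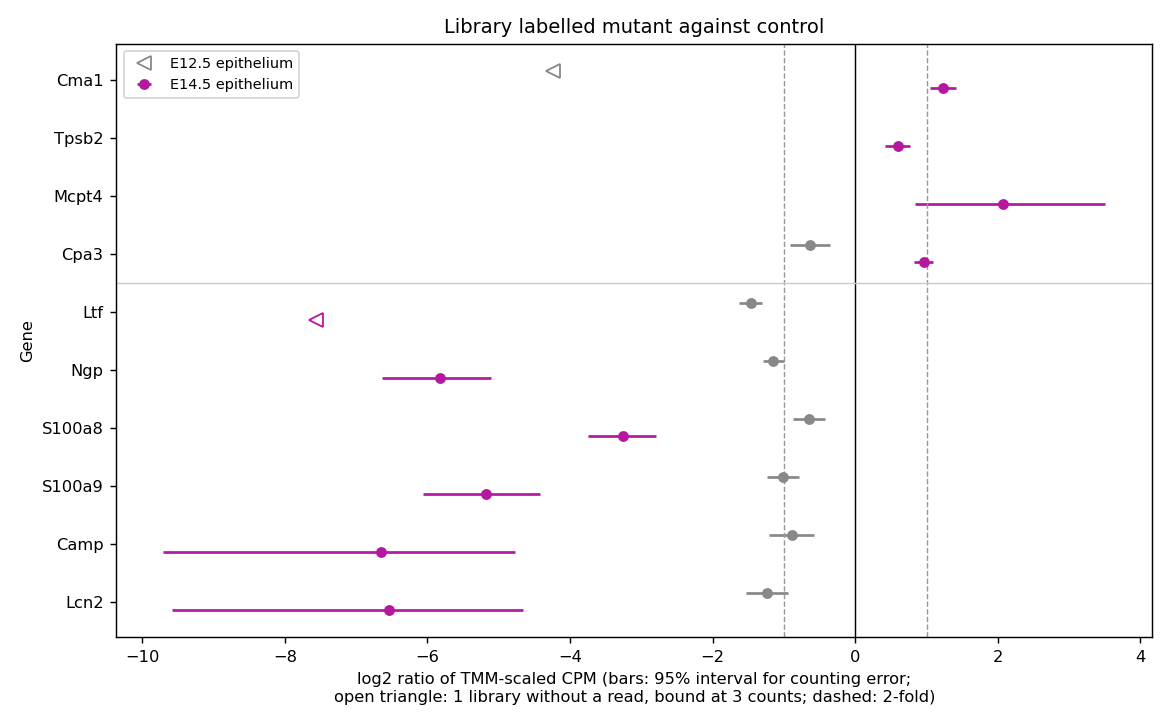
Log2 ratio of the library labelled mutant over the control for each member in E12.5 and E14.5 epithelium; bars are the exact 95% counting interval, open triangles mark bounds where 1 library had no read, and dashed lines mark 2-fold. At E14.5 the neutrophil genes lie at -3.26 or below and the mast cell genes at 0.60 or above, while at E12.5 the members plotted lie below 0.

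The members were all but missing from E12.5 mesenchyme. The mast cell sum was 1 read in each mesenchyme library (0.0671 and 0.0643 CPM), and the neutrophil sum was 2 reads in the control and 7 in the mutant (0.134 and 0.450 CPM). In controls, Cpa3 was lower in mesenchyme than in epithelium by 228-fold (40.5 to 9014) on its 1 read. Ltf was at least 356-fold lower, Ngp at least 354-fold, S100a9 at least 153-fold, Lcn2 at least 101-fold and Camp at least 70.9-fold, all with no read in mesenchyme. S100a8, with 2 reads, was 179.8-fold lower (49.5 to 1488).

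All 7 measured members were called lower in control mesenchyme, where 13.6% of 12066 measured genes were, and none higher, where 7.00% were. They reached 5 CPM only through epithelium, so being measured fixed that direction and the counts support nothing further. In the mutant pair all 7 were again lower, where 12.9% of 11956 measured genes were, and none higher, where 5.42% were. There S100a8, with 6 reads, was 39.8-fold lower (18.0 to 110) and Ngp, with none, at least 166.5-fold lower. No member was measured in the comparison of mutant with control mesenchyme, where 1.96% of 11188 measured genes were called higher and 3.50% lower.

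Mesenchyme was not without blood cell genes. The general leukocyte genes summed to 122 and 120 CPM in control and mutant mesenchyme, and the macrophage genes to 104 and 50.4 CPM. Per 100 reads of the general leukocyte genes, the neutrophil group had 56.3 reads in E12.5 control epithelium and 0.110 in control mesenchyme, and the mast cell group 4.61 and 0.0550. In the mutant pair the neutrophil group had 32.6 and 0.375 such reads, and the mast cell group 3.07 and 0.0536. The gap between the fractions thus remained per read of this list. The macrophage genes had 112 reads per 100 general leukocyte reads in control epithelium and 85.3 in control mesenchyme. In the mutant pair they had 99.4 and 42.0. Much of the general leukocyte sum in mesenchyme came from a few genes. Of 1818 reads in control mesenchyme, Lsp1, an actin-binding protein, had 798, Laptm5 276 and Arhgdib 248, while Ptprc had 6. Of 1866 in mutant mesenchyme, Lsp1 had 944 and Ptprc 11. Lsp1 stood higher in mesenchyme (53.5 and 60.7 CPM) than in E12.5 epithelium (30.2 and 47.6 CPM). Reads of this list in mesenchyme therefore need not stand for leukocytes.

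Between E12.5 and E14.5 the mast cell genes were higher at the later stage in both genotypes, and the neutrophil genes were lower at the later stage only in the libraries labelled mutant by the 2-fold rule. That difference between genotypes was not tested. In control epithelium the mast cell sum went from 19.0 to 107 CPM, 5.64-fold higher (5.06 to 6.31). Cma1 was 6.55-fold higher (5.12 to 8.47), Cpa3 3.29-fold higher (2.88 to 3.76) and Tpsb2 at least 227-fold higher. All 3 measured mast cell genes were called higher, where 6.53% of 12136 measured genes were, and their appearance at this stage was what chose them. Relative to the general epithelial genes Cpa3 was 1.94-fold higher and no longer called.

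The neutrophil sum of control epithelium was 232 CPM at E12.5 and 199 CPM at E14.5, 1.17-fold lower (1.12 to 1.22). None of the 6 was called in either direction, where 11.2% of measured genes were called lower. Ltf was 1.75-fold lower (1.59 to 1.93) and Lcn2 1.52-fold lower (1.28 to 1.82). S100a8 was 1.20-fold higher (1.05 to 1.37) and S100a9 1.18-fold higher (1.05 to 1.33). For Camp the interval included 1 (ratio 1.01, 0.841 to 1.21), and Ngp was 1.10-fold lower (1.01 to 1.19). Set against the general epithelial genes, S100a8, S100a9 and Camp had log2 ratios of -0.50, -0.52 and -0.75, and relative to the general leukocyte genes Ngp had one of 0.25 and the sum one of 0.17, each the other way. The control library at E12.5 is the one with the differently named table.

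In the libraries labelled mutant the mast cell sum went from 9.86 to 205 CPM, 20.8-fold higher (17.7 to 24.7). Cpa3 was 9.90-fold higher (8.35 to 11.8), Cma1 at least 291-fold and Tpsb2 at least 246-fold. The 3 measured mast cell genes were called higher, where 6.27% of 12167 measured genes were. Appearance at E14.5 chose them, and Cma1 and Tpsb2 reached 5 CPM only at E14.5, so nothing is read from that count. The neutrophil sum went from 105 to 5.46 CPM, 19.2-fold lower (15.3 to 24.5), with all 6 genes called lower, where 5.89% of measured genes were. S100a8 was lowered 5.10-fold (3.66 to 7.26) and S100a9 15.2-fold (8.855 to 28.17). Ngp was 28.0-fold lower (17.0 to 49.3), Camp 53.5-fold (14.49 to 447) and Lcn2 59.9-fold (16.3 to 500.0), while Ltf was at least 120.2-fold lower. This comparison shares the E14.5 library labelled mutant with the genotype comparison at E14.5, so the same low neutrophil levels enter both. The 6 neutrophil genes reached 5 CPM only in the E12.5 library, so being measured fixed their direction. Nothing is read from their count either.

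**Figure D4:**
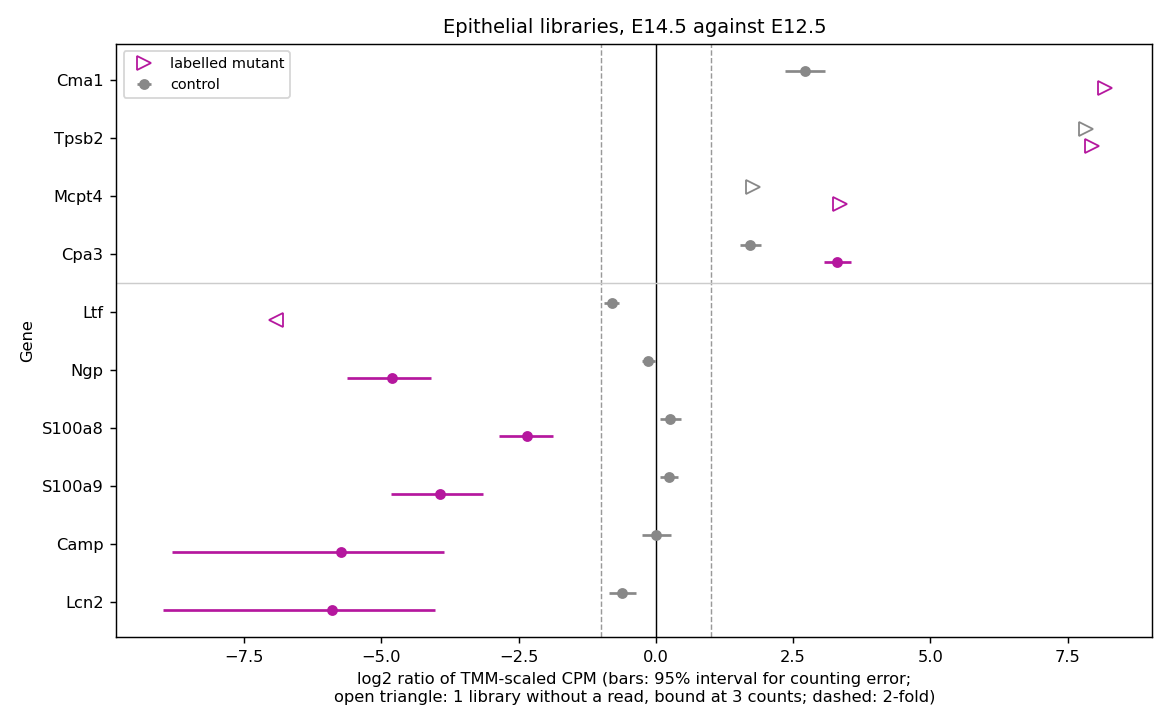
Log2 ratio of E14.5 over E12.5 for each member in control epithelium and in the epithelium labelled mutant; bars are the exact 95% counting interval, open triangles mark bounds where 1 library had no read, and dashed lines mark 2-fold. The mast cell genes lie above 0 in both pairs, and the neutrophil genes lie between -0.81 and 0.26 in the controls and at -2.35 or below in the libraries labelled mutant.

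Other genes of mast cells were present beside the proteases, most of them below the 2-fold threshold. Of a list of 28, 13 were measured in the E14.5 genotype comparison, 2 were higher and 1 lower (median log2 ratio 0.69). In that comparison 9.64% of all measured genes were higher and 6.40% lower. The gene called lower was Alox5, at 10.1 and 4.31 CPM at E14.5, control first, and the 2 called higher were Tpsab1 and Slc18a2. Tpsab1, a second mast cell tryptase, had no read at E12.5 and stood at 1.78 and 6.25 CPM in the E14.5 libraries, control first, 3.51-fold higher (2.24 to 5.67). Hdc, which makes histamine, stood at 5.23 and 3.09 CPM at E12.5 and at 15.1 and 24.3 CPM at E14.5, control first. It was 2.88-fold higher (2.28 to 3.65) at E14.5 than at E12.5 in controls. Slc18a2, which loads amines into granules, was 2.14-fold higher (1.48 to 3.13) in the E14.5 library labelled mutant, from 3.08 to 6.61 CPM. At E12.5 it stood at 11.6 and 6.77 CPM, control first, so in controls it was lower at the later stage, unlike the proteases. Slc18a2 stood highest in mesenchyme, at 26.4 and 25.4 CPM, and the general mesenchymal genes summed to more in that same E14.5 library (11107 against 5431 CPM); their part in its ratio was not tested. Kit, the receptor on which mast cells depend, stood at 94.5 CPM in the E14.5 control and 49.1 CPM in that labelled mutant, short of 2-fold, and also stood at 41.6 and 34.1 CPM in mesenchyme, where the proteases were missing.

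The defining parts of the mast cell's IgE receptor were at or near 0. Fcer1a, its alpha chain, had 8 reads in E12.5 control epithelium and none in the other 5 libraries. Ms4a2, its beta chain, stood at 0.959 and 0.862 CPM in the E14.5 control and labelled-mutant libraries and at 0.330 CPM or below at E12.5. The basophil protease Mcpt8 had 9 reads (0.616 CPM) in the E14.5 control and none in the other 5. In the libraries labelled mutant, 7 of 12 measured genes of the mast cell list were higher at E14.5 than at E12.5 and none lower (median 1.27). Of all genes measured there, 6.27% were higher and 5.89% lower. In controls 2 of 10 measured genes of the list were higher and 1, Slc18a2, was lower (median 0.16). There 6.53% of all measured genes were higher and 11.2% lower.

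Genes of other neutrophil granules did not all follow the 6 members. Mpo, the myeloperoxidase of primary granules, stood at 4.99 and 7.75 CPM in the E12.5 epithelial libraries and at 10.5 and 6.54 CPM at E14.5, 1.60-fold lower (1.23 to 2.10) in the library labelled mutant. Elane, neutrophil elastase, had at most 15 reads in any library. The 6 primary granule genes summed to 13.9 CPM in E14.5 control epithelium and to 15.3 CPM in that labelled mutant. Of the 2 measured there, none was lower and Prtn3, proteinase 3, was 4.15-fold higher (2.70 to 6.59), although Prtn3 was also present in mesenchyme, at 4.29 and 5.92 CPM. Among all genes measured in that comparison, 6.40% were lower and 9.64% higher. Without Prtn3, the other 5 genes summed to 12.1 CPM in E14.5 control epithelium and 7.61 CPM in that labelled mutant.

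The later granule list, 14 genes beside the members, summed to 179 CPM in E14.5 control epithelium and to 110 CPM in that labelled mutant, with 2 of 4 measured genes lower and none higher (median -1.20). Among all measured genes, 6.40% were lower and 9.64% higher. Most of the list's sum was Lyz2, lysozyme, which macrophages also make, at 135 and 94.4 CPM. Mmp8, the neutrophil collagenase, stood at 10.1 and 0.986 CPM at E12.5 and at 4.73 and 0.575 CPM at E14.5. It was 10.2-fold lower (6.06 to 18.6) in the E12.5 library labelled mutant. Mmp9, the gelatinase of the last granules, stood at 21.1 and 9.53 CPM in E12.5 epithelium, at 3.15 and 4.45 CPM at E14.5, control first, and at 10.2 CPM in control mesenchyme.

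Among 25 genes of the neutrophil surface and cytosol, 3 were measured in the E14.5 genotype comparison, with 2 lower and none higher (sums of 72.7 and 22.2 CPM, control first). With Lcn2 and Hdc, which were left out, 5 of 27 were measured and 3 were lower (101 and 46.7 CPM). Among all measured genes, 6.40% were lower and 9.64% higher. Hdc went the other way, from 15.1 to 24.3 CPM. Stfa1, a stefin that inhibits cysteine proteases, was 28.5-fold lower (12.8 to 78.6), from 12.3 to 0.431 CPM. BC100530, a neighbouring stefin gene, was 39.6-fold lower (15.2 to 147), from 11.4 to 0.287 CPM. The members of this stefin family resemble each other, so reads may be divided among them uncertainly. Anxa1, which other cells also make, was 1.75-fold lower (1.45 to 2.12) and not called. Csf3r, the receptor for granulocyte growth factor, stood at 1.55 and 6.31 CPM at E12.5 and at 2.95 and 0.934 CPM at E14.5. At E12.5 it was 4.06-fold higher (2.71 to 6.22) in the library labelled mutant, where the 6 members were lower. Cebpe, the factor that drives secondary granule genes, had at most 20 reads in any library.

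Eosinophil genes had yet another pattern. Prg2, the major basic protein of eosinophil granules, stood at 9.04 and 11.4 CPM in the E12.5 epithelial libraries, had no read in the E14.5 control and 5 reads (0.359 CPM) in the E14.5 library labelled mutant. The 8 eosinophil genes summed to 15.7 and 18.3 CPM at E12.5 and to 0.822 and 2.30 CPM at E14.5. In controls Prg2 was at least 44.0-fold lower at E14.5. The eosinophil genes were thus highest at E12.5, whereas the 4 mast cell proteases were highest at E14.5.

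**Figure D5:**
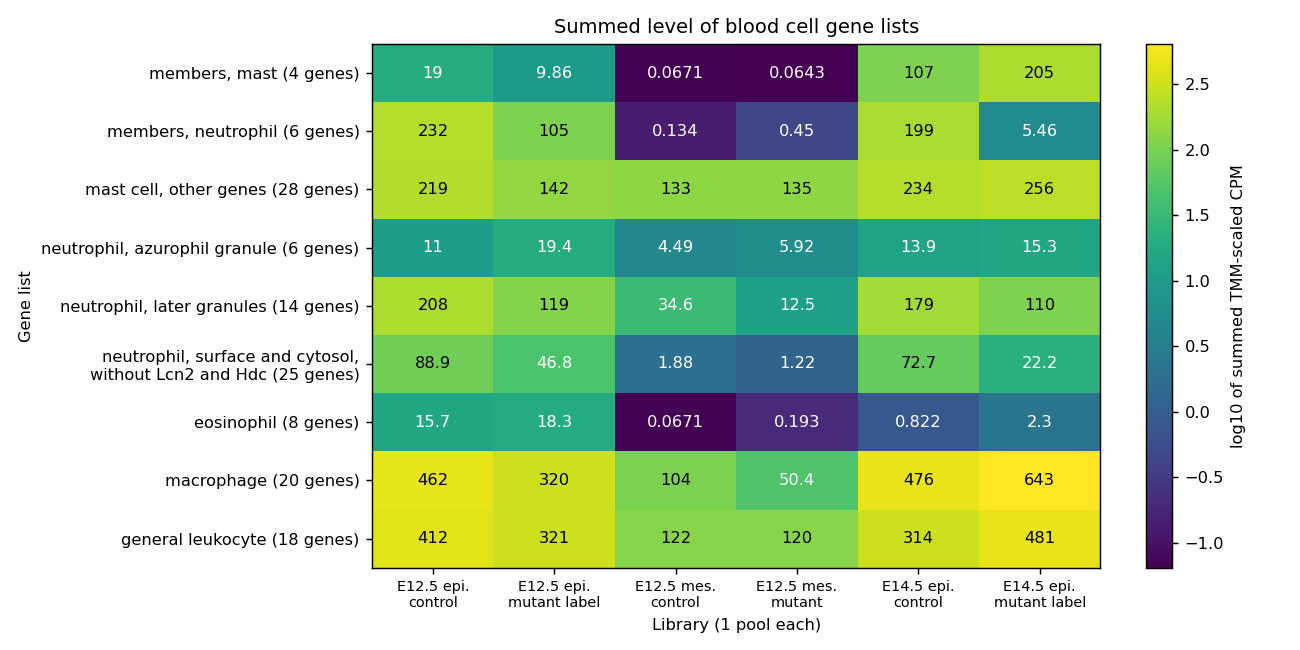
Summed level of the 2 member groups and of 7 other blood cell gene lists in the 6 libraries, printed in TMM-scaled CPM and coloured by its log10. The neutrophil members stand at 5.46 CPM in the E14.5 library labelled mutant, where the general leukocyte list stands at 481 CPM and the macrophage list at 643 CPM, the highest of their rows.

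Per 100 reads of the general leukocyte genes, the neutrophil group had 56.3 and 32.6 reads in the E12.5 control and labelled-mutant epithelium and 63.2 and 1.13 at E14.5. The mast cell group had 4.61 and 3.07 reads at E12.5 and 34.1 and 42.7 at E14.5. The macrophage genes had 112 and 99.4 reads at E12.5 and 151 and 134 at E14.5. On this measure, chosen after the data were seen, the mast cell groups of the E14.5 libraries stood nearer to each other than in CPM, and the neutrophil gap remained. The general leukocyte reads include Lsp1, with 329 reads in the E14.5 control and 1079 in the E14.5 library labelled mutant.

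Within each group the members varied alike over the 6 libraries. On log2(CPM + 0.5), Pearson's r of each neutrophil gene with the mean of the other 5 was 0.967 to 0.998, and that of each mast cell gene with the other 3 was 0.96 for Cma1, 0.90 for Tpsb2, 0.88 for Mcpt4 and 0.83 for Cpa3. The 6 points share library, depth and tissue make-up, and these values are a description. Both groups were also chosen by a shared pattern, so likeness within a group was partly built in. Of 1640 genes with a log2 range of at least 3, sex-linked genes and those with provisional symbols, such as BC100530, were left out of the ranking. Among the rest, those whose pattern was most like the neutrophil mean were Stfa1 (0.995), Olfm4, Fam160a1, Hp and Ppp4r4 (0.98 each), Slc44a4 (0.97), and Ccdc30 and Lhx6 (0.96 each). Olfm4 encodes olfactomedin 4, found in a subset of neutrophils, and Hp encodes haptoglobin, which neutrophils also store. Olfm4 stood at 19.3 and 5.72 CPM in the E12.5 epithelial libraries and at 7.74 and 0.0718 CPM at E14.5.

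Among 1643 genes, with the same kinds of gene left out of the ranking, those most like the mast cell mean were Matn2, Aldh1a1, Tspan1, Ptgds and Tgm7 (0.99 each) and Klhl32, Cym and Neurod2 (0.98 each). Ptgds encodes a prostaglandin D synthase. Matn2, which encodes a matrix protein, stood at 22.3 and 17.3 CPM in E12.5 epithelium, 12.01 and 8.81 CPM in mesenchyme and 59.3 and 87.8 CPM at E14.5. Unlike the proteases, Matn2 was present in mesenchyme.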

How the data were processed

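RNA of sorted dorsal pancreatic bud cells was measured in 6 pooled libraries, 1 per group. The authors deposited raw counts per gene, whole numbers that were not normalised, in tables named as deduplicated, a step that can lower the counts of abundant short genes. The submitters' processing notes name mm10, Cufflinks 2.2.1 and Cuffdiff 2.2.1. Aligner, counter, annotation and strandedness: not given in the sources used here. The 5 summary lines of each table (reads on no gene 4.69% to 8.84%, ambiguous 1.53% to 1.72%) were kept out of totals of 14032569 to 20276045 counts.

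Counts were scaled to CPM with TMM factors (0.941 to 1.047; edgeR 4.0.16, R 4.3.3). Ratios carry an exact 95% conditional binomial (Clopper-Pearson) interval, computed with Python 3.11.15, numpy 2.4.6, pandas 2.3.3 and scipy 1.17.1; figures used matplotlib 3.10.9. Because no molecular identifiers were counted, reads need not be separate molecules, and intervals and floors cover counting error alone. A count of 0 was set to a floor of 3 reads per library, and a fold against it is written as "at least". That fold is the value at the floor and not the bound of the exact interval. Genes were called at 2-fold, with an interval leaving out 1 and 5 CPM in at least 1 library. The calculation was tested on simulated data.

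The members and the lists were chosen with earlier results of these data known. Listed genes (21 lists; 280 of 282 symbols matched, 3 of them by synonym; the other 2 are not analysed here) were named by the rule of up to 4 with the highest CPM per list plus defining markers, and the 8 genes most like each group's mean profile. Those printed were selected from that set after their values were seen. The list of surface and cytosol genes was shortened by Lcn2, a member, and Hdc, also in the mast cell list. Csf3r and Fpr2, which other lists also hold, were kept. Promoters came from RefSeq on GRCm38.p6 and gene models from GENCODE M21. Part of the mutant genotype is not reported here. Alternatives were DESeq2 1.42.0 size factors, plain CPM, other filters and folds, and ratios relative to epithelial or, added after seeing the data, leukocyte genes.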

Additional observations from a re-analysis of the deposited data

Results flagged for a closer look

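The genotype ratio of the mast cell genes went opposite ways at the 2 stages, with both counting intervals leaving out 1. For Cma1 the log2 ratio of the library labelled mutant over the control was 1.23 at E14.5 and at most -4.24 at E12.5, where the library labelled mutant had no read. For Cpa3 it was 0.96 at E14.5 and -0.63 at E12.5, although relative to the general leukocyte genes the E12.5 interval included 1. For the sum of the 4 mast cell genes it was 0.94 at E14.5 and -0.95 at E12.5. The stage ratio of the calprotectin genes went opposite ways in the genotypes. The log2 ratio of E14.5 over E12.5 was 0.26 in the controls and -2.35 in the libraries labelled mutant for S100a8, and 0.24 and -3.92 for S100a9. That opposition depends on the scaling: relative to the general epithelial genes the control ratios were -0.50 for S100a8 and -0.52 for S100a9, the direction seen in the libraries labelled mutant. With 1 library per group, none of these differences was tested.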

How the results depend on the processing

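No paired analysis was possible because each group has 1 library. Of the recounts of called members under the alternatives, 291 stayed within 1.5 times the reported count and 21 moved. The 291 include counts of 0 that stayed 0, such as those of mutant against control mesenchyme, where the members had few or no reads. The 291 is therefore no measure of stability. Of the recomputed log2 ratios, 705 stayed within their counting interval, 68 moved and none of the called ones changed sign. The 705 include settings that changed only the filter, the fold or the interval condition. Those settings cannot change a log2 ratio, so the 705 is no measure of stability. Uncalled ratios that turned were Tpsb2 in the E14.5 genotype comparison (-0.02 relative to the leukocyte genes) and, in the control stage comparison, S100a8, S100a9 and Camp (relative to the epithelial genes), Camp (-0.14 with plain CPM), and Ngp and the neutrophil sum (relative to the leukocyte genes). The interval of that Tpsb2 ratio included 1. The cause of the moves was not tested. In the E14.5 genotype comparison the count of mast cell genes called higher, 1 as reported, was 2 with plain CPM, with a filter at 1 CPM and with no filter, 3 at 1.5-fold and relative to the general epithelial genes, and 0 at 4-fold and relative to the general leukocyte genes. In E12.5 epithelium the count of mast cell genes called lower was 1 at a filter of 1 CPM, with no filter and at 1.5-fold in place of 0. The count of neutrophil genes called lower there was 0 at 4-fold, 2 relative to the epithelial and 1 relative to the leukocyte genes in place of 4. In control epithelium 2 neutrophil genes were called lower at E14.5 in place of 0 at 1.5-fold and relative to the epithelial genes. A filter at 20 CPM left 2 in place of 6 neutrophil genes called lower in the labelled-mutant stage comparison and in the mutant fraction comparison, and 0 in place of 1 mast cell gene in both fraction comparisons. In the control fraction comparison that mast cell count was 2 at 1 CPM and with no filter. Centring on the epithelial genes shifted log2 ratios by the genes' median of -0.91 (E14.5 genotype), -0.17 (E12.5 genotype), 0.76 (control stage) and 0.24 (labelled-mutant stage), and centring on the leukocyte sum by 0.61, -0.36, -0.39 and 0.58. Plain CPM moved the median of all genes in the control stage comparison to -0.19 and the share of called genes that were higher from 36.9% to 24.3%. Depth limits Mcpt4 (28 reads or fewer in every library), and Ltf, Ngp, S100a9, Camp and Lcn2 in the E14.5 library labelled mutant (16 reads or fewer).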
